A study of Mus musculus with 80 samples.

Results

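The genes described here are 49 of 11381 genes measured in the mouse hippocampus whose level, on the side injected with kainate, was lower than in sham animals at day 7 and near or above it at days 28 and 60. They were chosen from measured values. On the log2 values of the authors' series matrix, with each gene read by its brightest detected probe, the mean of kainate (KA) arrays minus the mean of sham arrays on the injected (ipsilateral, IL) side had to be at most -0.5 at day 7 and at least -0.15 at both later days. Of 276 genes at or below the day 7 threshold, 54 met both later thresholds, which is 19.6%. Of those 54, 5 (Cck, Dlg4, Kcnip4, Kcnj4 and Mat2b) were left out by name, as members of families set aside in the rule. All 49 symbols matched a protein-coding gene of RefSeq.

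The study modelled mesial temporal lobe epilepsy in male C57BL/6J mice that had surgery when 12 weeks old. KA animals received 50 nl of 20 mM kainic acid, an agonist of kainate-type glutamate receptors, in the right dorsal hippocampus, and sham animals received the same volume of saline. Both hippocampi of 40 animals were measured on 80 Illumina bead arrays, 1 array a side, so the contralateral (CL) array of an animal is another array but not another animal. KA animals numbered 8 at day 7, 9 at day 28 and 9 at day 60, and sham animals numbered 4, 5 and 5 at the same days. All animals, sham included, had the burr hole and the injection, and no animal without surgery is among the groups.

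The hippocampus is built of excitatory pyramidal and granule neurons, local inhibitory interneurons and glia. Kainate injected into it evokes prolonged seizures, and in this model microglia and astrocytes react over the following days while neurons near the injection are lost. The 49 genes have mixed roles. They include carriers of axonal cargo, proteins of the synapse and its actin skeleton, regulators of small GTPases, matrix proteoglycans, transporters, secreted proteins and parts of the ubiquitin and autophagy machinery. Marker lists describe how KA and sham tissue differed and do not check the label of the tissue. The 14 measured pan-neuronal genes had a median KA minus sham difference of -0.24 at IL day 7 (14 of 14 below 0), while the 14 measured microglial genes had one of 2.38. The 9 measured genes of the thalamus and neighbouring cortex had a median of -0.36, with 5 of 9 below 0. Of all genes, 57.5% were below 0 at IL day 7, the background for the counts below 0 given for each list. In whole tissue, fewer cells of a type and less RNA per cell cannot be told apart.

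One KA animal of day 7 stood apart on both sides. The level of the microglial list, given as the median over its genes of the log2 deviation from each gene's mean over all arrays, was -0.39 in IL KA replicate 8, against 1.75 to 2.61 in the other 7 IL KA arrays. The 4 IL sham arrays lay between -0.95 and -0.42. The CL array of the same animal, CL KA replicate 7, had -0.77, against 0.14 to 1.77 in the other 7 CL KA arrays and -0.91 to -0.73 in CL sham arrays. The main day 7 counts and medians are also given without this animal. Leaving it out moved the IL day 7 difference of single genes among the 49 by between -0.14 and 0.04. The share of probes detected on an array ranged between 46.8% and 66.9%.

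On the scale used below, log2 intensity after background correction and quantile normalization, the median KA minus sham difference over the 49 genes at IL day 7 was -0.67, and the genes ranged between -0.96 and -0.53. At day 28 the median was 0.00, and at day 60 it was 0.02. Over all 11381 genes the medians were -0.04, -0.03 and -0.01 at the 3 days. These differences describe the choice and carry no test. In 24 of the 49 genes every IL KA array at day 7 was below every sham array, and the share of all genes with that pattern was 2.62%. Without KA replicate 8 the median was -0.72 and the count was 32, beside 5.59% of all genes. Of the 49, 41 also met all 3 thresholds on the scale used here.

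**Figure D1:**
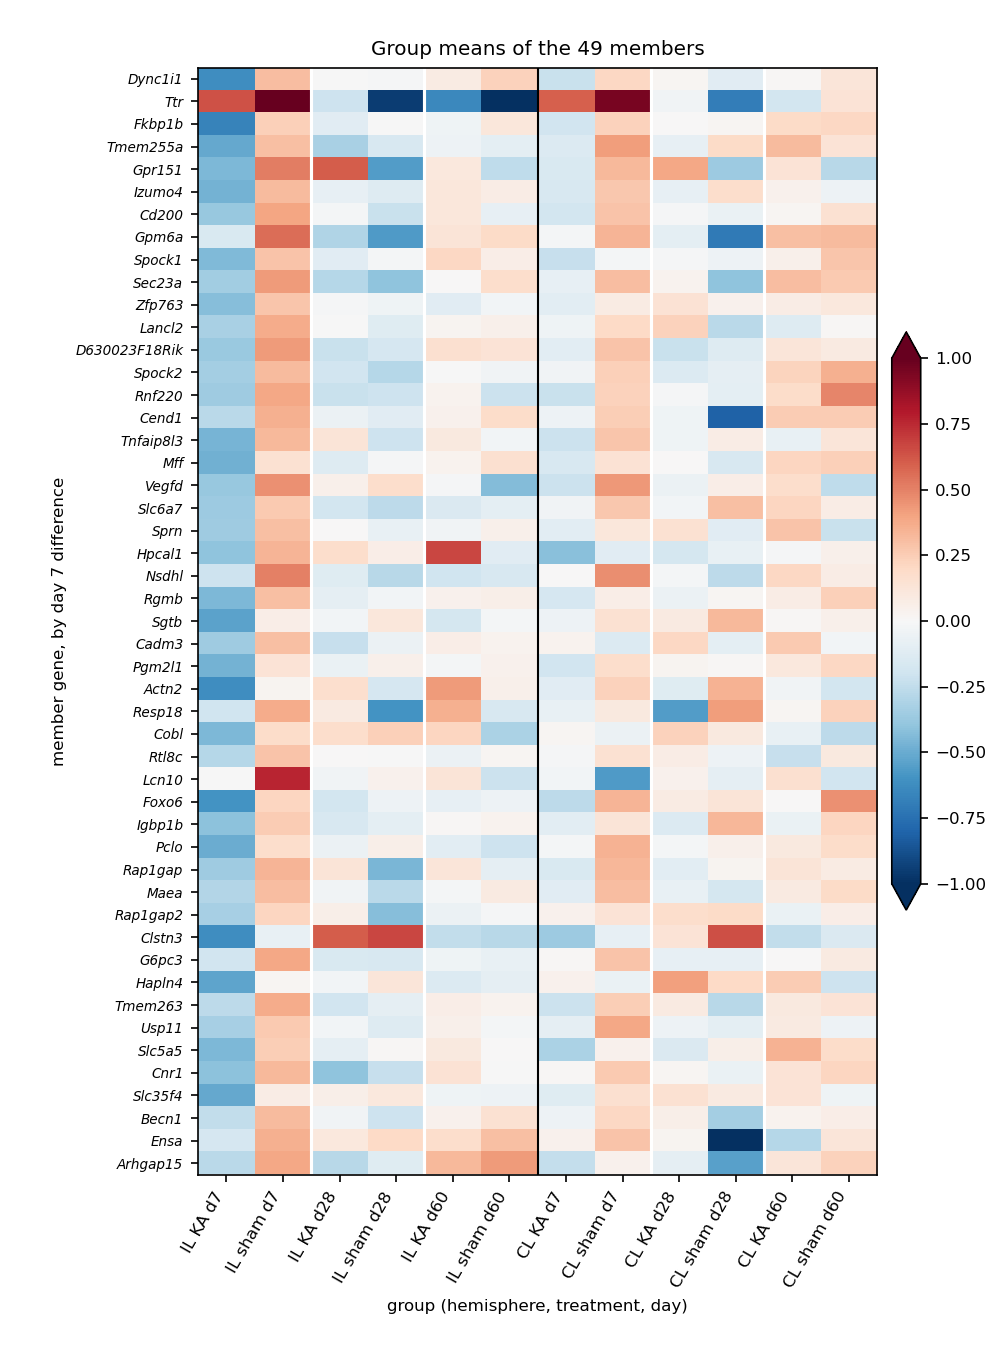
Heat map of the mean log2 intensity of each of the 49 genes (rows, by size of the day 7 difference) in the 12 groups (columns), as the difference from the gene's mean over the groups, clipped at -1 and 1. The IL KA day 7 column is the lowest of the 6 IL columns in 38 genes, and the IL sham day 7 column is the highest in 39.

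Dync1i1, an intermediate chain of the dynein motor that carries cargo toward the cell body, had the largest difference on the series matrix scale. Its log2 intensity in the 8 IL KA arrays at day 7 had a lowest value of 8.84, a median of 9.38 and a highest of 10.05. The 4 sham arrays had 10.51, 10.25, 10.27 and 10.35. Every KA array was below every sham array, and the highest KA array was the one with low microglial genes. The difference was -0.93 at day 7, 0.01 at day 28 and -0.15 at day 60. The list of 31 measured genes of axonal transport and microtubules, of which Dync1i1 was the only member of the 49, had a median difference of -0.20 at IL day 7, with 25 of 31 below 0. Without KA replicate 8 it was -0.24, with 26 of 31 below 0, beside 58.2% of all genes.

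Cd200, a neuronal surface ligand of an inhibitory receptor on myeloid cells, also separated the groups. Its KA arrays had a lowest value of 7.26, a median of 7.69 and a highest of 8.17 at IL day 7, and the sham arrays had 8.48, 8.21, 8.51 and 8.64. No KA array reached the lowest sham array. At days 28 and 60 the KA means were 8.04 and 8.18, against 7.85 and 7.98 in sham. A second probe of Cd200 differed by -0.30 at day 7, less than the -0.78 of the probe that stands for the gene.

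Fkbp1b, an immunophilin that binds ryanodine receptors, had a lowest value of 6.24, a median of 6.53 and a highest of 7.46 in IL KA arrays at day 7. Its sham arrays had 7.48, 7.41, 7.71 and 7.85. In 6 of 8 KA arrays the value was below every sham array, so the groups overlapped. The difference was -0.91 at day 7, -0.11 at day 28 and -0.15 at day 60.

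The promoters of 39 of the 49 genes are in the RefSeq table (mouse build GRCm38.p6), each spanning 250 bases before to 50 bases after the annotated start. The following 4 are of genes that are described in these results by array or by movement between days. Dync1i1 (chr6:5725389-5725688, plus strand) holds none of the letters searched, Cd200 (chr16:45409004-45409303, minus strand) and Fkbp1b (chr12:4841524-4841823, minus strand) hold GGGCGG, the Sp1 motif, and Actn2 (chr13:12340683-12340982, minus strand), which gained most in KA between day 7 and later, holds both GGGCGG and CACGTG, an E-box form. Capitals mark matches on either strand.
Dync1i1: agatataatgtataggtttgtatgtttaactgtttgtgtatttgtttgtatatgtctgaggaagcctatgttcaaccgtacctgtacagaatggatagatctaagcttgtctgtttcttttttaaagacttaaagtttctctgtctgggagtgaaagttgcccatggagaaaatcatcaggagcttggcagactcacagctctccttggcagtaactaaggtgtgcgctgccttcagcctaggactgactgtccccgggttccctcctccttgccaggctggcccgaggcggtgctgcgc
Cd200: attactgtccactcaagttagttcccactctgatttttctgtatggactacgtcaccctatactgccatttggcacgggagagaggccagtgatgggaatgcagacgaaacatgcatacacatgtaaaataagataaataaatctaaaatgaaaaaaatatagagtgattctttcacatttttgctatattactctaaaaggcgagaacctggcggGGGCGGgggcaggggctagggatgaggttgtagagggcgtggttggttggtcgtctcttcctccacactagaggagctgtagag
Fkbp1b: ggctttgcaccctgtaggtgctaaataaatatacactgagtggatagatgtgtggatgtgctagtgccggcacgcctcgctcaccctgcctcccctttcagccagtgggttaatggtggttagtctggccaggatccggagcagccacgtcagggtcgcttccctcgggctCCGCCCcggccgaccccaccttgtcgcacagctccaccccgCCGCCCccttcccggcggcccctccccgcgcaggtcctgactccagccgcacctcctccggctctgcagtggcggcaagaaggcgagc
Actn2: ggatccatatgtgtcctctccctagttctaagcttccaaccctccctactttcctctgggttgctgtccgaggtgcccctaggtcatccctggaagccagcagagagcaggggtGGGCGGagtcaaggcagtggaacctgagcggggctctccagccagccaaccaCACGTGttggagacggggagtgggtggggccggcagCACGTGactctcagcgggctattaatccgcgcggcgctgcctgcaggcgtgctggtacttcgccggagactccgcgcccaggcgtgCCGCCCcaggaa

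Letters were searched on both strands in promoters of equal length, and where a gene had several promoters any of them counted. GGGCGG was in 25 of 39 member genes, or 64.1%, beside 64.6% of the 9182 measured genes with a promoter. CACGTG was in 7 genes, or 17.9%, beside 11%. CAGCTG, another E-box form, was in 17.9% beside 18.8%, and TATAAA was in 10.3% beside 10.5%. TGACGTCA, the cyclic AMP response element, was in the promoter of Clstn3 alone, or 2.6% beside 3.2%. CTATTTTTA (a form bound by MEF2), GCGTGGGCG (EGR) and GCGCATGCG (a form bound by NRF1) were in none of the 39, beside 0.5%, 1.3% and 3.5% of measured genes. The median GC content was 59.7% in member promoters and 60.0% in those of measured genes. A match describes letters in this window and is no evidence of binding.

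Among the other genes with the largest day 7 differences, several encode membrane or secretory proteins. Tmem255a, a transmembrane protein, had a lowest value of 7.06, a median of 7.84 and a highest of 8.54 in IL KA arrays, against sham values of 8.84, 8.52, 8.71 and 8.81. Only the highest KA array overlapped the sham arrays. Gpm6a, a neuronal membrane glycoprotein of growing neurites, had 8.36, 9.48 and 9.94 as the lowest, median and highest KA values, against 9.94, 10.22, 9.84 and 10.37 in sham. The Gpm6a groups overlapped, with 6 of 8 KA arrays below every sham array, and its 2 other probes differed by 0.22 and -0.44, so the probes disagree in sign.

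Sec23a, a subunit of the COPII coat that buds vesicles off the endoplasmic reticulum, had a lowest value of 6.38, a median of 7.04 and a highest of 7.65 in IL KA arrays at day 7. Its sham arrays had 7.62, 7.94, 7.73 and 8.01, which 1 KA array reached. Izumo4, of a family named for a sperm fusion protein, had 7.60, 7.88 and 8.49 as the lowest, median and highest KA values, and 8.88, 8.61, 8.77 and 8.71 in sham. The Izumo4 groups did not overlap, and its KA minus sham difference was 0.05 at day 28 and 0.04 at day 60.

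Spock1 and Spock2 encode testicans, proteoglycans of the extracellular matrix. Spock1 had a lowest value of 7.75, a median of 8.29 and a highest of 8.98 in IL KA arrays at day 7, against 8.90, 9.32, 9.05 and 8.87 in sham. The highest KA array lay within the sham range. For Spock2 the difference was -0.66 without overlap. Hapln4, a link protein of the hyaluronan matrix around neurons, differed by -0.55 without overlap.

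Zfp763, a zinc finger protein, had a lowest value of 7.84, a median of 8.21 and a highest of 8.45 in IL KA arrays at day 7. The sham arrays had 8.84, 8.64, 8.97 and 9.10, all above the KA arrays. Lancl2, a LanC-like protein, had 8.06, 8.35 and 8.81 as the lowest, median and highest KA values and 8.89, 9.21, 8.96 and 9.04 in sham, also without overlap. Zfp763 had another probe, which differed by -0.19.

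Gpr151, an orphan receptor known for its expression in the habenula, was high on 1 sham array. Its KA arrays at IL day 7 had a lowest value of 4.76, a median of 4.96 and a highest of 5.33, and the sham arrays had 7.93, 5.39, 5.41 and 5.13. Sham replicate 1 stood far above the other 3 sham arrays, and without it the difference was -0.31 in place of -0.96 and the gene no longer met the rule. The CL array of the same sham animal was also the highest of its group, at 6.85 against 5.38, 5.27 and 5.64. Gpr151 was detected on 4 of 8 IL KA arrays. At day 28 its IL KA mean was 6.07, against 4.90 in sham.

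Ttr, the carrier of thyroxine and retinol made by the choroid plexus, varied by several log2 units within groups. Its IL KA arrays at day 7 had a lowest value of 10.50, a median of 13.43 and a highest of 14.39, and the sham arrays had 13.98, 14.46, 12.65 and 13.89. Only 2 of the 8 KA arrays lay below every sham array, and leaving out single arrays moved the day 7 difference between -1.16 and -0.45. Ttr is the only member of a list of 10 measured choroid plexus and ependyma genes, 9 of which were below 0 at IL day 7. The list's median difference was -0.73 at IL day 7 and -1.17 at day 28, where Ttr itself had 0.74. That Ttr value rests on IL sham day 28 replicate 5, at 6.44 against 10.52 to 14.05 in the other 4 sham arrays. Without it the Ttr difference at day 28 was -0.48 and Ttr no longer met the rule. The level of that list, taken the same way, ranged between -1.45 and 2.65 in IL KA arrays at day 7 and between -0.42 and 2.13 in sham arrays. Its part in the Ttr values was not tested.

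**Figure D2:**
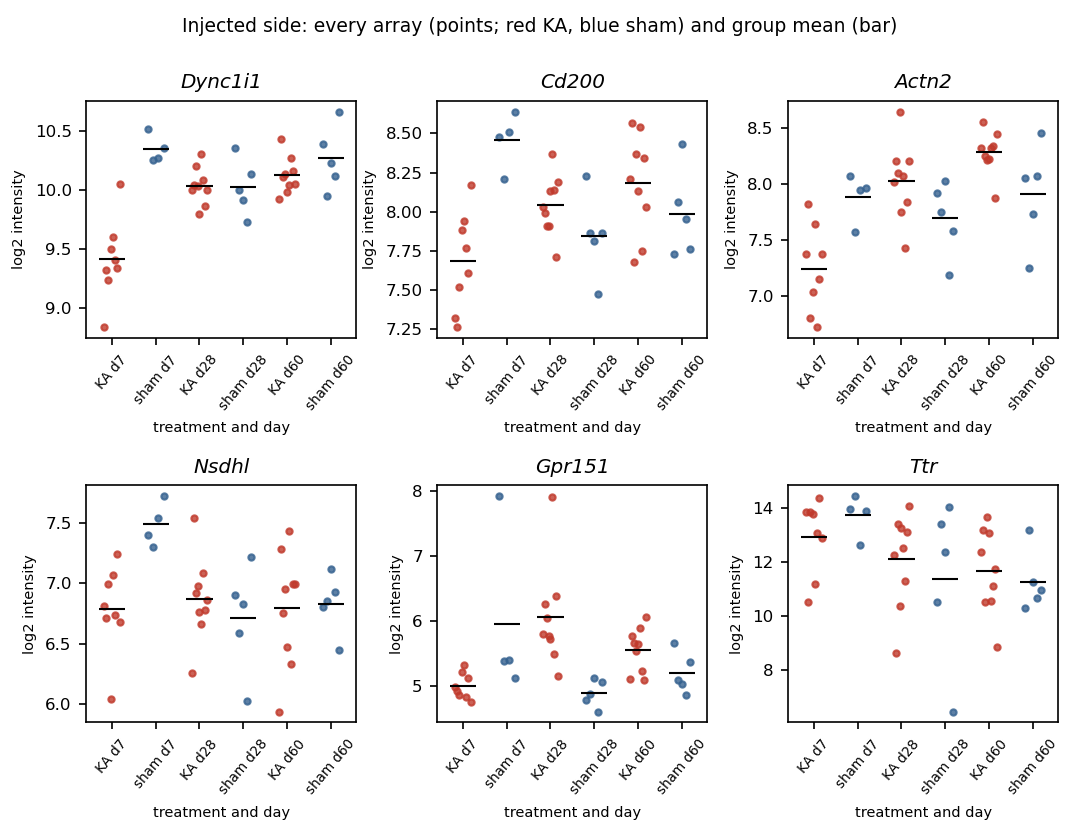
Log2 intensity of 6 of the 49 genes in every IL array by treatment and day (points; bars mark group means). Dync1i1, Cd200 and Nsdhl show no overlap of KA and sham at day 7, while the Gpr151 sham mean there rests on the array at 7.93 and Ttr spreads widely in all 6 groups.

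The remaining genes are given in functional groups that were put together after their values were seen. At the synapse and its actin skeleton, Pclo (piccolo, a scaffold of the presynaptic active zone) differed by -0.67 at IL day 7 without overlap. Actn2 (an alpha-actinin of dendritic spines) differed by -0.65 and Clstn3 (a calsyntenin that organises synapses) by -0.55, both with overlap. Cnr1, the CB1 cannabinoid receptor, differed by -0.73, with sham values of 7.18, 5.78, 6.13 and 6.31 and a KA range of 5.13 to 6.16. In Cnr1, 5 of 8 KA arrays lay below every sham array, and sham replicate 1 was far above the other 3. Without that array the difference was -0.46 and Cnr1 no longer met the rule. The other probes of Pclo, Clstn3 and Cnr1 differed by -0.86, -0.39 and -0.16. Cadm3, an adhesion molecule, differed by -0.65 with overlap. In the list of 48 measured adhesion and synapse organiser genes, which holds Cadm3 and Clstn3, the median was -0.17 and 38 of 48 were below 0.

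Among regulators of small GTPases, the Rap inactivators Rap1gap and Rap1gap2 differed by -0.69 and -0.55 at IL day 7, both without overlap, and Arhgap15, an inactivator of Rac, by -0.66 with overlap. Rap1gap2 stood at 6.93 in IL sham day 28 replicate 5, against 10.72 to 11.34 in the other sham arrays of that day. Without that array Rap1gap2 no longer met the rule. In the ubiquitin and autophagy group, Rnf220 (a ubiquitin ligase) differed by -0.74, Usp11 (a deubiquitinase) by -0.59, Maea (a ubiquitin ligase) by -0.60 and Becn1 (a starter of autophagy) by -0.57. Of these, Maea and Becn1 did not overlap. The other probes of Usp11 and Becn1 differed by -0.45 and -0.13. The list of 32 measured ubiquitin and proteasome genes holds none of the 49. Its median was -0.09, with 22 of 32 below 0, beside 57.5% of all genes. Among transporters, Slc6a7, the neuronal proline transporter, differed by -0.63 and Slc35f4 by -0.58, both without overlap, and Slc5a5, the iodide symporter, by -0.70 with overlap. In the list of 21 measured neuronal solute carriers, which holds Slc6a7, 19 were below 0 with a median of -0.19.

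Further genes of the 20 largest differences were D630023F18Rik at -0.80 and Vegfd, a growth factor of lymphatic vessels, at -0.84, both with overlap. Cend1, which promotes cell cycle exit of neuronal precursors, was at -0.62 without overlap, and Mff, the mitochondrial fission factor, was at -0.63 with overlap. Nsdhl, a dehydrogenase of cholesterol synthesis, had a lowest value of 6.04, a median of 6.77 and a highest of 7.24 in IL KA arrays, against 7.40, 7.30, 7.54 and 7.72 in sham, without overlap. Its 3 other probes differed by -0.30, 0.01 and -0.48. Of 17 measured genes of cholesterol synthesis, 14 were below 0 at IL day 7, with a median of -0.17.

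Tnfaip8l3, a phosphoinositide transfer protein, was not well above background on any of the 8 IL KA arrays at day 7 and was detected on 4 of 4 sham arrays. Against the background level of those arrays it was at least 1.40-fold lower in KA, and its measured means were 4.70 in KA and 5.5 in sham. Igbp1b was likewise undetected on all 8 KA arrays and detected on 3 of 4 sham arrays, at least 1.28-fold lower in KA, with measured means of 4.70 in KA and 5.37 in sham. Across the 49 genes, 37 were detected on all 80 arrays. Another kept probe existed for 21 genes, 24 probes in all, of which 21 were below 0 at IL day 7 and 7 at or below -0.5. The other 3 probes belonged to Gpm6a (0.22), Mff (0.09) and Nsdhl (0.01).

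The thresholds cut through a continuous range. Just inside the day 7 threshold on the series matrix scale lay Ensa and Becn1 at -0.51 and Arhgap15 at -0.50, and just outside lay Agbl4 at -0.50, Tfrc at -0.49 and Relch at -0.49. Just inside a later threshold lay Sgtb at -0.15 (day 60), Sec23a at -0.15 (day 60) and Tmem255a at -0.14 (day 28). Just outside lay Shh at -0.16 (day 60), Nxph2 at -0.16 (day 28) and Efr3a at -0.16 (day 60).

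The return to a difference near 0 involved both treatments on the injected side. Between day 7 and the mean of days 28 and 60, the KA mean was higher later in 48 of the 49 genes, with a median of 0.34 (0.41 without KA replicate 8 of day 7). Over the same interval the sham mean was lower later in 48 of the 49, with a median of -0.34. Over all genes these medians were 0.03 in KA and 0.01 in sham. Both movements occurred in 47 genes, and the sham mean moved further than the KA mean in 25 genes and less far in 24. The rule used both means at all 3 days, so these movements describe the choice and carry no test.

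The mixture differed between genes. The later minus day 7 movement of Actn2 was 0.92 in KA and -0.09 in sham, and that of Dync1i1 was 0.67 in KA and -0.20 in sham. In Hapln4 and Mff the KA movement was 0.45 and 0.43, and the sham movement was -0.01 and -0.08. By contrast, Nsdhl moved by 0.05 in KA and -0.72 in sham, and Gpm6a by 0.06 in KA and -0.75 in sham. Nsdhl averaged 6.78, 6.87 and 6.79 in KA at days 7, 28 and 60, against 7.49, 6.71 and 6.83 in sham. Its sham mean of day 7 thus stood above all 5 other group means. The exceptions were Ttr, which moved by -1.06 in KA and -2.42 in sham, and Clstn3, which moved by 0.80 in KA and 0.27 in sham.

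**Figure D3:**
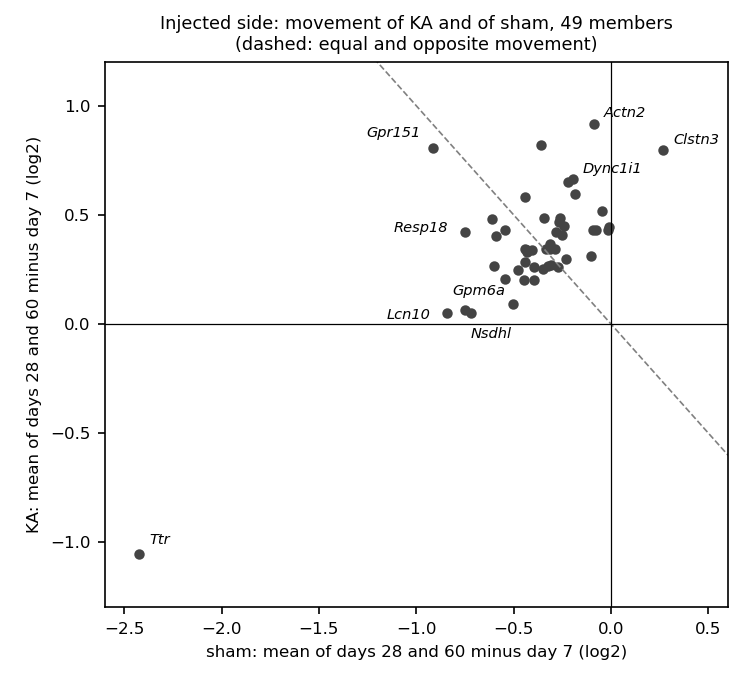
Each point is 1 of the 49 genes on the injected side. The horizontal axis gives the sham mean of days 28 and 60 minus the sham mean of day 7, and the vertical axis gives the same for KA, both in log2; above and right of the dashed line the KA movement is the larger, as in Actn2, and below and left of it the sham movement is, as in Nsdhl and Gpm6a.

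Arrays of all groups lay on 11 slides. With slide as a fixed block the median movement over the 49 genes on the IL side was 0.40 in KA and -0.29 in sham. Leaving out each of the 4 IL sham arrays of day 7 kept the sham median between -0.38 and -0.31. The sham arrays of days 28 and 60, which also enter this median, were not left out in turn. Within the 3 slides that held IL KA and sham arrays of day 7, the median KA minus sham difference was -0.95, -0.71 and -0.46. At day 28 it was -0.44 on slide 1, with 42 of the 49 below 0, and 0.09 on slide 6. At day 60 it was -0.06, 0.25, -0.14 and -0.12 on the 4 slides with both treatments. Each of these slides held 1 sham array of the day, and slide 1 did not show a median near 0 at day 28.

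The level of the 49 genes in an array, taken as the median log2 deviation from each gene's mean over the 80 arrays, gives the pattern per array. IL KA arrays at day 7 averaged -0.35 ± 0.18 (SD, n = 8), with a range of -0.56 to -0.04 (-0.40 ± 0.14 without replicate 8, n = 7), and IL sham arrays averaged 0.32 ± 0.07 (SD, n = 4), with a range of 0.22 to 0.38. At day 28 the values were -0.03 ± 0.16 in KA (SD, n = 9) and -0.08 ± 0.20 in sham (SD, n = 5). At day 60 they were 0.06 ± 0.18 in KA (n = 9) and 0.02 ± 0.13 in sham (n = 5). The highest KA array at day 7 was replicate 8, with low microglial genes, and the next was replicate 5 at -0.12, whose microglial list stood at 2.04.

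**Figure D4:**
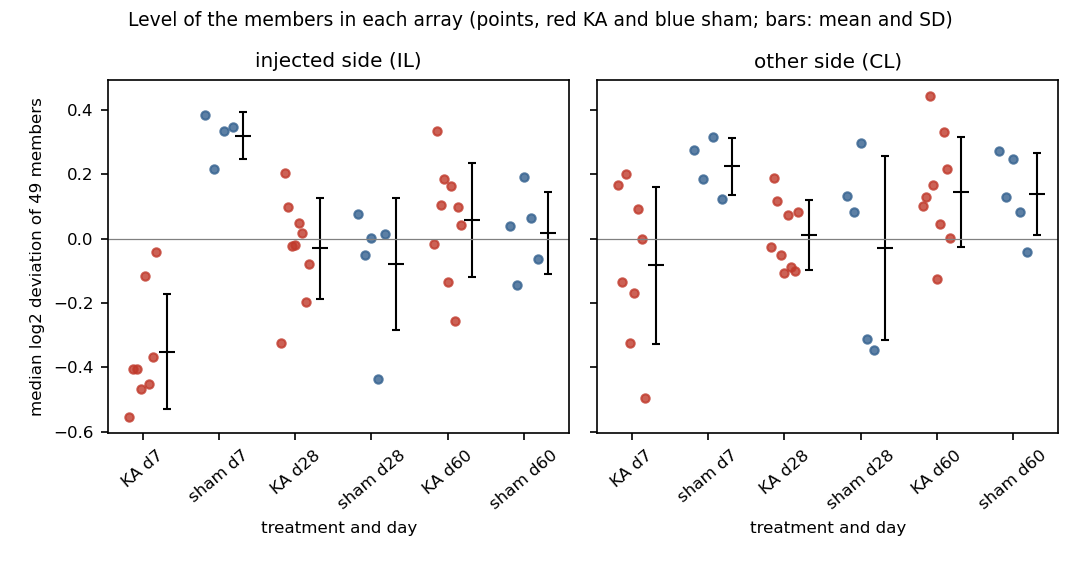
Median log2 deviation of the 49 genes in each of the 80 arrays (points), with mean and SD (bars), by treatment and day, for the injected (left) and other side (right). On the injected side the KA arrays of day 7 lie below 0 and the sham arrays of day 7 between 0.22 and 0.38; on the other side KA arrays of day 7 spread between -0.50 and 0.20.

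The CL arrays were not used in choosing the genes, and on them KA was tested against sham with limma over all 11381 genes. They came from the same animals as the IL arrays that chose the genes, so the CL tests are not independent of that choice. At CL day 7 none of the 49 genes passed an adjusted p of 0.05, beside 1.54% of all genes called, 170 higher and 5 lower; the lowest adjusted p among the 49 was 0.232. At an unadjusted p under 0.05 limma had 11 of the 49 lower, or 22.4%, beside 2.57% of all genes, and 0 higher, beside 5.95%. Single arrays moved the count of 11: it was 4 without sham replicate 1, 7 without sham replicate 3 or KA replicate 4, and 6 without KA replicate 8. It was 16 without KA replicate 1 or 3, 12 without KA replicate 7, the animal with low microglial genes, and 6 with slide as a fixed block. The difference was below 0 in 45 of the 49, beside 54.1% of all genes, and its median was -0.30, beside -0.02. The simulated recovery of this fit was 31.3% for 1.5-fold, 77.6% for 2-fold and 97% for 3-fold changes. The simulation used normal noise, without slide effects or outlying arrays. Changes as small as the median of the 49 were not simulated, so recovery at that size is not known.

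Dync1i1 had the lowest p of the 49 at CL day 7, with a log2 difference of -0.43 ± 0.16 (SE; adjusted p = 0.232 by limma). Its CL KA arrays had a lowest value of 9.34, a median of 9.79 and a highest of 10.22, against 10.23, 10.31, 10.41 and 10.04 in CL sham arrays. Only 2 of the 8 KA arrays reached the sham range. Cd200 differed by -0.47 ± 0.19 (adjusted p = 0.362 by limma), and Izumo4 by -0.43 ± 0.17 (adjusted p = 0.319 by limma). The CL KA arrays had 7.25, 7.90 and 8.30 as the lowest, median and highest Cd200 values, against 8.57, 8.32, 8.46 and 8.05 in sham.

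The other genes lower at an unadjusted p under 0.05 on the CL side were Fkbp1b (-0.42), Tnfaip8l3 (-0.49), Vegfd (-0.64), Rap1gap (-0.49), Maea (-0.42) and Usp11 (-0.48), with Foxo6 (a forkhead factor, -0.60) and Tmem263 (-0.46), both named after their values were seen. Nsdhl, at -0.46 ± 0.24, and Gpm6a, at -0.36 ± 0.28, had adjusted p of 0.635 and 0.881 by limma. The 4 genes above 0 were Cadm3 (0.17 ± 0.22), with Lcn10 (0.53 ± 0.40), Hapln4 (0.11 ± 0.17) and Cobl (0.08 ± 0.36), all 4 with adjusted p above the threshold. Of the lists that hold one of the 49, limma called no gene of the choroid plexus, cholesterol, axonal transport, adhesion or solute carrier lists at CL day 7, with 0, 0, 2, 7 and 1 lower at an unadjusted p under 0.05. In Clstn3 alone every CL KA array lay below every CL sham array, beside 0.457% of all genes. Without CL sham replicate 4 this held for 9 of the 49, beside 1.87%.

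**Figure D5:**
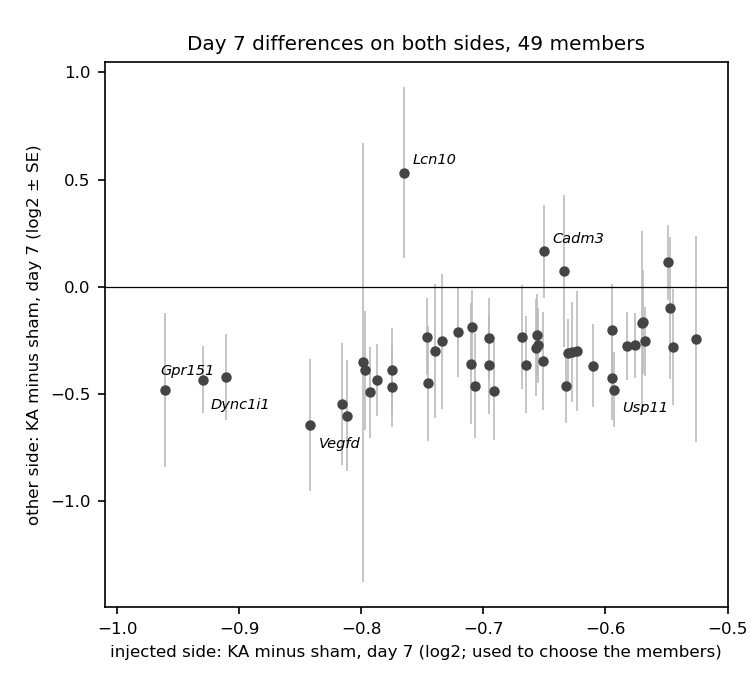
KA minus sham at day 7 for each of the 49 genes, on the injected side (horizontal axis, log2, used to choose the genes) and on the other side (vertical axis, log2, bars ± SE from limma). On the other side 45 of the 49 points lie below 0 and none passed the adjusted threshold.

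The array level of the 49 genes was -0.08 ± 0.25 in CL KA (SD, n = 8) and 0.22 ± 0.09 in CL sham (SD, n = 4). In order of that level, replicates 8, 4, 5 and 2 had -0.50, -0.33, -0.17 and -0.14, with microglial list levels of 1.31, 1.38, 0.46 and 1.77. Replicates 7, 6, 1 and 3 had 0.00, 0.09, 0.17 and 0.20, with microglial list levels of -0.77, 0.60, 0.14 and 0.73. Of the 14 measured microglial genes, limma called 11 higher at CL day 7 and all 14 were above 0 with a median of 1.68, and of the 14 pan-neuronal genes, 9 were below 0 with a median of -0.05. Their part in these results was not tested. Without CL KA replicate 7, the animal with low microglial genes, the median over the 49 was -0.32 and again 0 passed. Within the 2 slides with CL KA and sham arrays at day 7 the median was -0.07 on one and -0.29 on the other. With slide as a fixed block it was -0.24.

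At CL day 28, limma called 10 genes (0.0879% of all), none among the 49, with 4 of the 49 lower and 9 higher at an unadjusted p under 0.05, or 8.16% and 18.4%, beside 6.91% and 4.89% of all genes. Leaving out single arrays gave 1 to 4 lower and 5 to 9 higher. There was 1 lower without sham replicate 1, 1 lower and 6 higher without sham replicate 3, 2 lower without sham replicate 2 or KA replicate 4, and 5 higher without sham replicate 5. The median over the 49 was 0.05, beside -0.02 over all. Cend1 had the lowest p, 0.77 ± 0.25 higher in KA (adjusted p = 0.146 by limma). Its 9 CL KA arrays had a lowest value of 10.80, a median of 10.96 and a highest of 11.49, against 11.22, 11.17, 7.59, 10.70 and 10.77 in sham. The difference rests on the sham array at 7.59, sham replicate 3: without it Cend1 differed by 0.10 ± 0.17, and without sham replicate 1 or 2 it passed the threshold, at 1.0 (adjusted p = 0.0407 by limma) and 0.99 (adjusted p = 0.0457 by limma). At CL day 60, limma called 7 genes (0.0615%), none among the 49, with 0 lower and 2 higher at an unadjusted p under 0.05, beside 2.80% and 4.67%, and 1 higher without sham replicate 4. Their median was -0.04, beside 0.02 over all.

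Whether the KA effect itself differed between days was tested on the CL side, on arrays outside the choice but of the same animals. Between day 7 and day 28 limma called 0 genes of 11381 (0.0%), with 15 of the 49 higher at an unadjusted p under 0.05, or 30.6%, beside 3.87% of all genes, and 0 lower, beside 5.91%. The median change was 0.34, beside -0.02, and it was above 0 in 42 of the 49, beside 47.5% of all genes, and below 0 in 7, beside 52.5%. The lowest adjusted p was 0.176, for Tmem263 at 0.83 ± 0.23. Of the 11 genes lower at CL day 7, 5 were also among those 15, but both contrasts share the day 7 arrays. Leaving out single arrays moved the count of 15 to between 10 and 16. Over the 49, the CL KA mean moved by a median of 0.14 from day 7 to day 28, and the CL sham mean by -0.23. Between day 7 and day 60 limma called 1 gene (0.00879%), none among the 49, with 5 of the 49 higher at an unadjusted p under 0.05, or 10.2%, beside 3.05%, and 0 lower, beside 3.42%. The count of 5 was 3 without sham replicate 1 or KA replicate 8 of day 7. The median was 0.28, beside 0.02.

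Sham animals were compared between days on the CL side, which holds the movement of saline animals apart from KA. These are the same sham animals whose IL arrays entered the choice. Between day 28 and day 7, limma called 37 genes (0.325%), none among the 49, with 12 of the 49 lower at an unadjusted p under 0.05, or 24.5%, beside 3.84%, and 1 higher (Clstn3, at 0.73), beside 4.76%. Leaving out single arrays moved the count of 12 to between 8 and 15. The median over the 49 was -0.23, beside 0.03, with 36 of the 49 below 0, beside 44.3% of all genes, and 13 above, beside 55.7%. Gpm6a differed by -1.05 ± 0.31 (adjusted p = 0.145 by limma), and Sec23a by -0.71 ± 0.22 (adjusted p = 0.169 by limma). Cend1 differed by -1.06 ± 0.31 and rests on the array at 7.59. In CL sham arrays of day 28 the level of the 49 genes was 0.13, 0.08, 0.30, -0.31 and -0.35, so 2 of the 5 arrays lay low. The same 5 arrays enter KA against sham at CL day 28 and the change of the KA effect to day 28. The counts of those contrasts are thus not separate from the count of 12. Between day 60 and day 7 limma called 0 genes (0.0%), with 2 of the 49 lower (Vegfd and Usp11) at an unadjusted p under 0.05, or 4.08%, beside 2.67%, and 0 higher, beside 1.60%. The count of 2 lay between 0 and 3 without single arrays, and it was 0 without sham day 7 replicate 1 or sham day 60 replicate 4. The median was -0.10, beside -0.02, with 33 of the 49 below 0, beside 54.8%. It was 0.10 with slide as a fixed block.

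The difference between the 2 sides had opposite signs in KA and sham animals at day 7 only. In KA animals at day 7 the IL mean was below the CL mean in 46 of the 49 genes, beside 57.9% of all genes. The median was -0.27, beside -0.04 over all genes. In sham animals at day 7 the IL mean was below in 10 of the 49, beside 54.4%, with a median of 0.10 beside -0.02. At day 28 the medians were -0.08 in KA and -0.03 in sham, and at day 60 they were -0.04 in KA and -0.11 in sham. The IL arrays in this comparison are those that chose the genes, so it carries no test.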

How the data were processed

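Levels were measured on 80 arrays of 40 animals. The deposited table holds bead intensity per probe, with some values below 0 and no scaling between arrays, and a detection p-value for each, per the file headers. The authors' series matrix is on a log2 scale, and its sorted values are equal in all arrays. Tools named in the submitters' processing notes are Partek, GenomeStudio and BeadStudio, without versions. Of 25697 data lines, 4453 that form a second part were not used, since their columns do not match the arrays named on top. For 1 array the detection values sat 1 line too low and were realigned. Intensities were processed with limma 3.58.1 in R 4.3.3 by its neqc function, at an offset of 16 and with statmod 1.5.0. A probe was kept when detected at p under 0.05 on at least 4 arrays (16646 probes), and the probe with the highest series matrix mean stands for its gene. Limma fitted the 12 groups, and the animal entered as random (correlation 0.0787), with two-sided tests and Benjamini-Hochberg adjustment over 11381 genes in each of 7 CL contrasts. Its recovery was tested on simulated data. The series design text counts the sham groups of day 60 as KA, and the sample labels were followed. An array bound takes, per KA array, the higher of the probe's own value and the lowest detected value. The number of arrays limits the precision. Named genes are the 20 with the largest day 7 difference, those on marker or pathway lists, those nearest the thresholds, and groups of 3 or more of one function picked after their values were seen. The genes, lists and tests were chosen with earlier results of these data known. Plots used matplotlib 3.10.9, and tables pandas 2.3.3 with numpy 2.4.6 under Python 3.11.15.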

Additional observations from a re-analysis of the deposited data

Results flagged for a closer look

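An array was looked at again where its gap to the nearest other array took up most of its group's range by Dixon's limit. Of 64 groups tested, 6 had such an array, and chance gives about 1 in 20. Gpr151 stood at 7.93 in IL sham day 7 replicate 1, against 5.41 in the next array. Ttr stood at 10.74 in CL sham day 7 replicate 3, against 13.99 in the next. Izumo4 stood at 7.65 in CL KA day 7 replicate 8, against 8.17, and that array was also the lowest for the 49 genes together. Cend1 stood at 7.59 in CL sham day 28 replicate 3, against 10.70 in the next. Clstn3 stood at 7.94 in CL KA day 28 replicate 4, against 11.09. The median level of the 49 genes stood at -0.44 in IL sham day 28 replicate 4, against -0.05, and 51.0% of probes were detected on that array. The Cend1 and Clstn3 groups were added to those tested after their values were seen.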

How the results depend on the processing

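The number of genes chosen was 49 by the rule, 103 on background-corrected values (41 shared), 12 with thresholds of -0.6 and -0.1, and 181 with -0.4 and -0.2. With the mean of the kept probes it was 37 (31 shared). Only the 21 genes with another kept probe could be lost there, since the other genes keep their values. Of these 21, 18 were lost, Cd200, Gpm6a and Nsdhl among them. Membership of most genes with several probes thus depends on the probe chosen. Leaving out each of the 40 IL arrays in turn gave 40 to 67 genes. Hapln4 was lost without any of 12 arrays and Sgtb without any of 11. With slide as a fixed block 28 of the 49 were chosen again, of 38 in all. Dync1i1, Fkbp1b and Actn2 were among the 21 lost there, and Fkbp1b was also lost on background-corrected values.

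None of the 49 was called in any CL contrast under any full-data alternative. Leaving out single arrays kept 0 called except Cend1, called at day 28 and in sham day 28 against day 7, so those counts ranged from 0 to 1. Genes called over all at CL day 28 were 10, and 3 with median scaling, 24 with a strict filter, 30 with the mean of the kept probes and 5 with CL arrays only. At CL day 60 they were 7, and 1 with median scaling. For the change from day 7 to 28 they were 0, and 7 with median scaling and 19 with CL arrays only. For the change from day 7 to 60 they were 1, 3 with the strict filter, 6 with CL arrays only, and 0 with no background correction, series matrix values, the mean of the kept probes or slide as a block. Without single CL arrays the counts were 89 to 222 at day 7, 0 to 219 at day 28, 3 to 11 at day 60, 0 to 39 and 0 to 26 for the changes to day 28 and day 60, and 21 to 51 and 0 to 0 for sham day 28 and day 60 against day 7. At CL day 7, where 175 genes were called, the count was 112, 101 and 89 without sham replicates 1, 3 and 4 and 114 without KA replicate 8. At CL day 28 it was 219 without sham replicate 4, 107 and 108 without replicates 1 and 2, 76 without replicate 5 and 0 without replicate 3. Without CL KA day 7 replicate 7, the animal with low microglial genes, it was 39 for the change to day 28 and 26 for the change to day 60. Without CL sham day 7 replicate 4 it was 21 for sham day 28 against day 7, where 37 were called.

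Medians over the 49 without single arrays lay between -0.35 and -0.25 at CL day 7, -0.06 and 0.14 at day 28, -0.09 and -0.01 at day 60, 0.25 and 0.42 for the change to day 28, 0.23 and 0.34 for the change to day 60, -0.35 and -0.13 for sham day 28, and -0.15 and -0.05 for sham day 60. For sham day 60 against day 7 the median was -0.31 with median scaling, under which all genes had a median of -0.14, and 0.10 with slide as a block. Within slides it was -0.069 and -0.288 at CL day 7, -0.28 and 0.25 at day 28, and 0.05 and 0.15 at day 60. The cause was not tested. Equal replicate numbers did not pair CL arrays: their correlations were 0.05 to 0.34 at day 7, -0.11 to 0.14 at day 28 and -0.17 to 0.16 at day 60. With the replicate number as a block the genes called were 12 at CL day 60 and 2 for the change to day 28, with 0 of the 49 in each. At IL day 7, alternatives chosen after seeing the data kept the 12 genes with the largest differences on the series matrix scale below 0. Those genes were picked for their low values on the same arrays, so this outcome carries no test. Nsdhl, also described by array, was not among those 12. With the mean of the kept probes Gpm6a had -0.31 and Zfp763 -0.45.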
